A study of Salix viminalis with 12 samples.

Results

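The genes described here are 10 Arabidopsis genes for enzymes and a binding protein that set the composition of membrane lipids: 7 fatty acid desaturases, 2 phospholipases D and acyl-CoA-binding protein 6. Their counterparts were looked up in the annotation of the root transcriptome of *Salix viminalis* (basket willow) by the Arabidopsis gene code that the authors gave to each contig, and the suffix of the gene model was removed. Contigs were matched to 8 of the 10 genes. The share of all Arabidopsis genes with contigs was not determined. No such share therefore stands beside this count or beside those of the families and other lists below. These 8 genes had 60 contigs, out of 64173 contigs with a code for 13764 Arabidopsis genes and out of 86843 contigs in all.

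The assembly pooled 12 libraries from fine roots of cuttings of a single *S. viminalis* individual, so that all plants were of 1 clone. There were 3 libraries in each of 4 groups, which crossed the soil with the temperature. Plants on control soil were either temperate (CT) or cold acclimated (CC), and so were plants on metal-polluted soil (MT and MC, respectively). Cuttings of 10 cm were rooted for 3 weeks, grown for 40 days on their soil and then kept for 4 weeks at 23/20 °C (day/night; CT and MT) or 7/5 °C (CC and MC), with 16 h of light and 8 h of dark throughout. The treatment labels give 22 °C and 4 °C for these temperatures. The soil of MT and MC was spiked with Cd (1.5 ppm), Cu (175 ppm), Ni (30 ppm) and Zn (500 ppm). The 5 columns of the table hold names, codes and text, and 0 columns hold a value per library. The depth of each library is therefore not known from it, and no difference of CC, MT or MC from CT was tested for any of the genes. What follows describes which Arabidopsis codes of lipid genes were assigned in the root assembly and to how many contigs, with no replicates and no expression level. Whether the contigs of a code came from a single or from several willow genes was not tested. A code without contigs does not show that the willow gene was absent. Of 8 root marker genes, 7 had contigs. MYB36 had 11 contigs, GL2 9, SHR 6, SCR and WER 3 each, and CASP1 and WOX5 1 each. COBL9, which acts in root hairs, had 0 contigs. Of 4 leaf marker genes, 3 had contigs too, with 1 to 3 contigs each, so that the presence of a contig did not tell the tissues apart.

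Fatty acid desaturases insert double bonds into the acyl chains of membrane lipids, which keeps membranes fluid at low temperature. In plants, a soluble stearoyl-ACP desaturase of the plastid makes the first double bond, and membrane-bound desaturases of the endoplasmic reticulum (FAD2, then FAD3) and of the plastid (FAD6, then FAD7 or FAD8) add the next ones. Phospholipases D cleave phospholipids to phosphatidic acid, a lipid signal that also accumulates in injured or frozen tissue, and acyl-CoA-binding proteins carry acyl-CoA esters and, in the case of Arabidopsis ACBP6, bind phosphatidylcholine.

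In the endoplasmic reticulum, the oleate desaturase FAD2 (AT3G12120) had 8 contigs. Of these, 5 were from the first Trinity assembly, 0 from the second and 3 without a Trinity name, which were taken as CLC contigs. The first and second Trinity assembly were told apart by the prefix of the contig name only. The linoleate desaturase that follows FAD2, FAD3 (AT2G29980), had 0 contigs. The first of these steps was thus represented in the table by its own code and the second was not. FAD2 was also the only one of the 8 matched genes whose contigs were split between gene models, with 5 contigs for model AT3G12120.1 and 3 contigs for AT3G12120.2. Of all matched genes, 6.8% had contigs of more than 1 gene model.

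In the plastid, FAD7 (AT3G11170) and FAD8 (AT5G05580) are closely related omega-3 desaturases, of which FAD8 is the form known in Arabidopsis for its activity at low temperature. FAD8 had 11 contigs and FAD7 had 0 contigs. The 11 contigs of FAD8 came from all 3 assemblies, with 6 from the first Trinity assembly, 3 from the second and 2 CLC contigs. A contig carries at most 1 code, and all contigs with a code of FAD3, FAD7 or FAD8 carried that of FAD8. No sequence or match score was used here, so that how close each contig is to FAD3 or FAD7 was not tested, and the absence of a code does not show that the transcript was absent. FAD6 (AT4G30950), the plastid enzyme that acts before FAD7 and FAD8, had 6 contigs, and FAD5 (AT3G15850), which desaturates palmitate on the plastid galactolipid MGDG, had 9 contigs. By assigned code, the 4 plastid genes together had 26 contigs and those of the endoplasmic reticulum 8 contigs. Of the 26 contigs, 11 carried the code of FAD8 and 9 that of FAD5. In which compartment the willow products act was not tested.

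**Figure D1:**
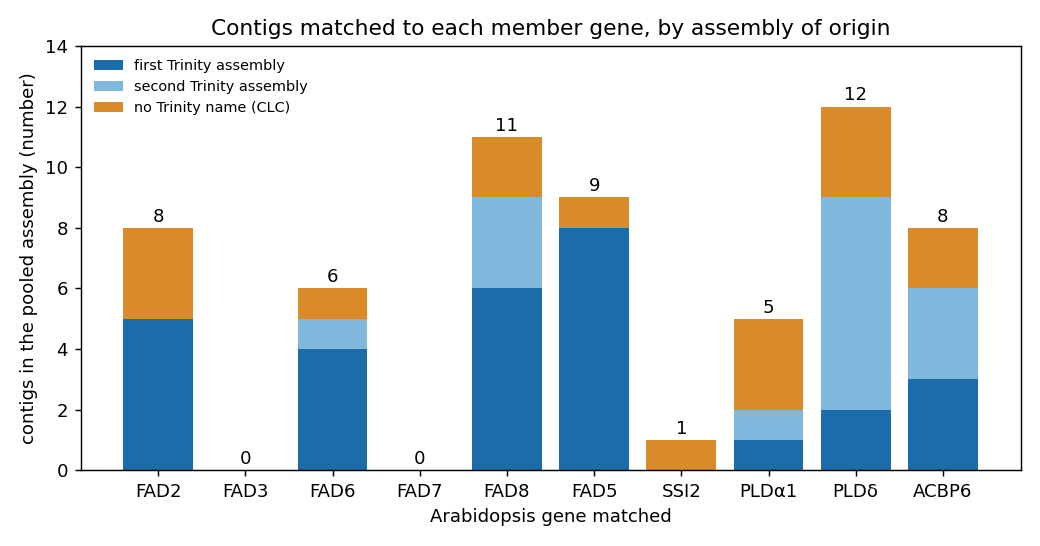
Number of contigs in the pooled assembly (vertical axis) matched to each of the 10 Arabidopsis genes (horizontal axis), coloured by the assembly named in the contig; the number above each bar is the total. FAD3 and FAD7 stand at 0, SSI2 has a single CLC contig, and PLDδ has the tallest bar with 12 contigs, of which 7 come from the second Trinity assembly.

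The stearoyl-ACP desaturase SSI2 (AT2G43710, also FAB2), which makes the oleate that FAD2 and FAD6 desaturate further, had a single contig, from CLC. Of the 7 matched genes other than SSI2, each had 5 contigs or more. In the same family, DES5 (AT3G02630) had 4 contigs and AT1G43800 had 1 contig. DES2 (AT3G02610), DES3 (AT5G16230), DES4 (AT3G02620) and AT5G16240 had 0 contigs each. The 7 stearoyl-ACP desaturase genes of Arabidopsis thus had 6 contigs in all, of which those of DES5 made up the larger part.

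Both phospholipases D were matched. PLDδ (AT4G35790), a plasma membrane enzyme whose overexpression raises freezing tolerance in Arabidopsis, had 12 contigs, with 2 from the first Trinity assembly, 7 from the second and 3 from CLC. PLDα1 (AT3G15730), the abundant form in Arabidopsis, whose suppression there lowers the loss of phosphatidylcholine upon freezing, had 5 contigs, with 1, 1 and 3 in the same order. All 12 contigs of PLDδ carried the code of gene model AT4G35790.2. ACBP6 (AT1G31812), a small cytosolic protein whose overexpression also raises freezing tolerance in Arabidopsis, had 8 contigs, with 3, 3 and 2 from these assemblies.

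The matched genes had a median of 8 contigs, with a range from 1 to 12, while the median over all 13764 matched Arabidopsis genes was 3 contigs with quartiles of 2 and 5. More than 1 contig was found for 7 of the 8 matched genes, against 77.7% of all matched genes. More contigs than the upper quartile were found for 6 of the 8, against 23.3% of all matched genes. PLDδ had more contigs than 94.2% of all matched genes, FAD8 more than 93.1%, FAD5 more than 89.3%, and FAD2 and ACBP6 more than 86.3% each. PLDα1, at 69.5%, and FAD6, at 76.7%, lay lower, and no gene had fewer contigs than SSI2, which shared its count of 1 with 22.3% of all matched genes. These shares describe the assembly and not the level of the transcripts.

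**Figure D2:**
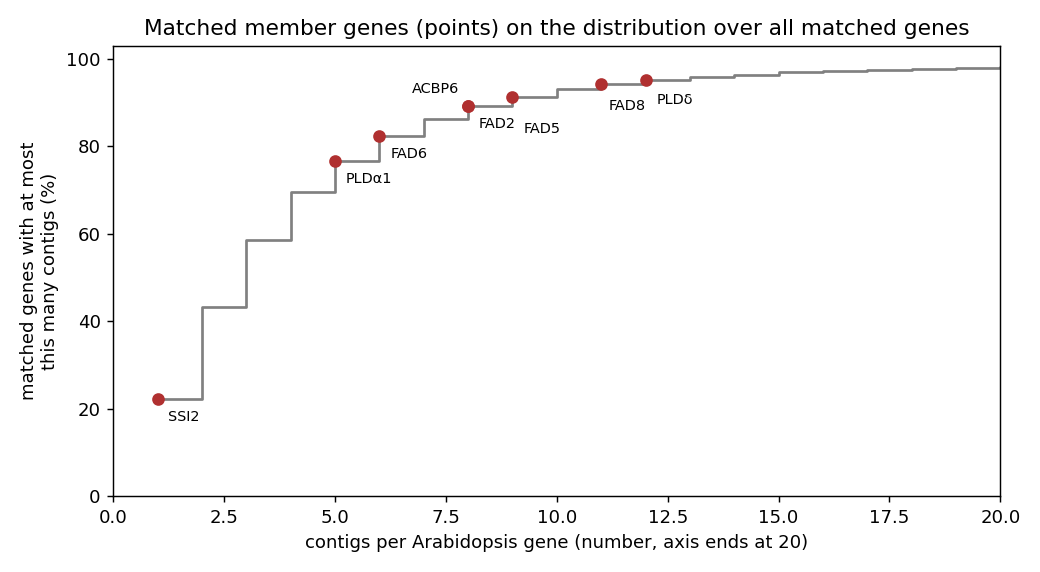
Share of all 13764 matched Arabidopsis genes (vertical axis, percent) that had at most the number of contigs on the horizontal axis (grey line; the axis ends at 20 contigs, which covers 98.2% of the genes), with the 8 matched lipid genes as red points. SSI2 sits at the lower end with 1 contig, PLDα1 at 5 contigs is the next, and the other 6 lie between 6 and 12 contigs.

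Contigs of all 3 assemblies were found for 5 of the 8 genes (FAD6, FAD8, PLDα1, PLDδ and ACBP6), against 25.9% of all matched genes. These 5 genes had between 5 and 12 contigs, against a median of 3 over all matched genes. Genes with like numbers of contigs were not compared for this share. Over the 60 contigs, 29 (48.3%) came from the first Trinity assembly, 15 (25%) from the second and 16 (26.7%) from CLC. The corresponding shares over all contigs with a code were 52.9%, 21.4% and 25.8%. FAD2 and FAD5 had 0 contigs from the second Trinity assembly, and SSI2 had 0 contigs from both. Similar sequences of the assemblies had been collapsed by the authors, and the table does not show which ones were removed.

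The Trinity names show how the contigs of a gene were grouped, since Trinity assigns transcripts that share sequence to a Trinity gene and numbers them as isoforms. The 44 Trinity contigs belonged to 29 Trinity genes. A single contig was left in 20 of these (69%), against 73.3% of all 33174 pairs of a Trinity gene and a code. The 7 lipid genes with Trinity contigs had a median of 4 Trinity genes, and all genes with a Trinity contig a median of 2. Genes with like numbers of Trinity contigs were compared for FAD5 only. FAD5 was the most scattered: its 8 Trinity contigs lay in 7 Trinity genes of the first assembly, of which 6 held 1 contig each and 1 held 2 contigs. Of the 276 Arabidopsis genes with 8 Trinity contigs, 49 (17.8%) were spread over 7 Trinity genes or more, and their median was 5. PLDδ and FAD8 each had 9 Trinity contigs in 4 Trinity genes. For PLDδ, the pair in the second assembly held 4 and 3 contigs. In the larger of these the isoform numbers reached 25, the highest number among the 7 genes. The highest isoform numbers were 19 for FAD6, 14 for FAD8, 9 for FAD2, 6 for ACBP6, and 3 each for FAD5 and PLDα1, whereas over all genes with a Trinity contig the median of the highest number was 5, with an upper quartile of 11. PLDδ, FAD6 and FAD8 thus lay above the upper quartile, and FAD5 and PLDα1 below the median.

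FAD8 had 3 Trinity genes in the first assembly, with 3, 2 and 1 contigs, and 1 in the second with 3 contigs. FAD6 had 3 in the first assembly, with 2, 1 and 1 contigs, and 1 in the second with 1 contig. ACBP6 had 3 Trinity genes with 1 contig each in the first assembly and 2 in the second, with 2 and 1 contigs. FAD2 had 3 in the first assembly, with 3, 1 and 1 contigs. The same locus can be assembled in both Trinity runs, so that the sum over both can count it more than once. Within a run, the genes found there had between 1 and 7 Trinity genes in the first assembly and between 1 and 2 in the second.

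The number at the end of a contig name was taken to number the coding sequences that were predicted on a parent transcript. Its meaning and its order are not given in the sources used here. FAD2 differed from the other genes in these numbers. Of its 8 contigs, 6 carried number 2 or higher and 2 carried number 1. Of the 6, 3 were isoforms of the same Trinity gene and thus not separate cases. Of the 52 contigs of the other 7 genes, 6 (11.5%) carried number 2 or higher, close to the 11.8% over all contigs with a code. Of the 403 Arabidopsis genes with 8 contigs, 2 (0.496%) had 6 or more such contigs, FAD2 included. None of the 8 parent transcripts of FAD2 had another coding sequence left in the table. This property of FAD2 was noticed after the values were seen.

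**Figure D3:**
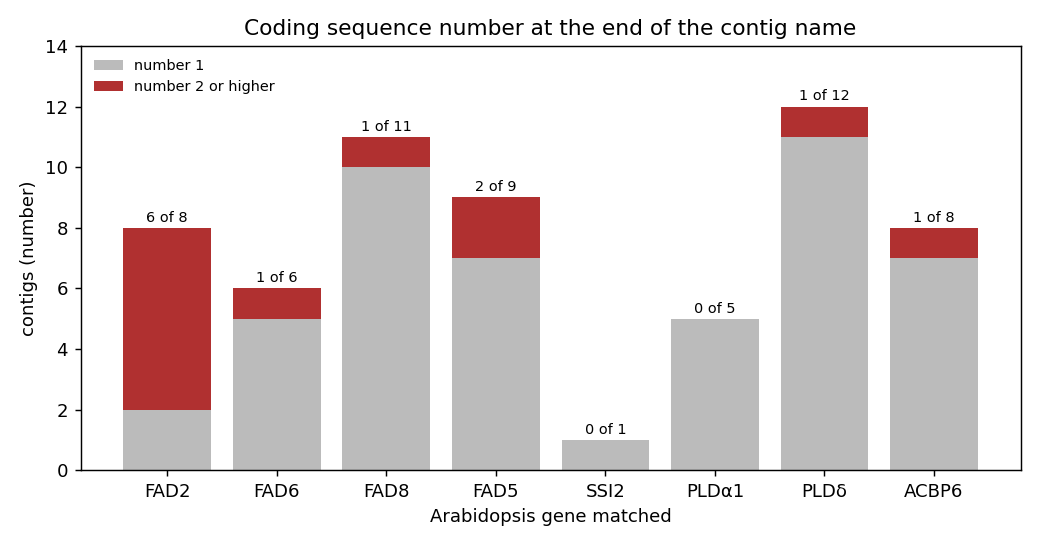
Contigs of the 8 matched genes (vertical axis, number of contigs), divided by the coding sequence number in the contig name into number 1 (grey) and number 2 or higher (red); the label above each bar gives the red part of the total. In FAD2 the red part is 6 of 8 contigs, and in the other genes it is at most 2 contigs.

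Contigs of the lipid genes were then compared with the other codes on the same transcripts. No parent transcript, Trinity gene or Trinity component (all names of an assembly with the same DN number) held contigs of 2 of the 10 genes. The code of another gene stood on 2 of the 60 parent transcripts. Both were CLC transcripts of PLDδ whose other coding sequence was matched to plastocyanin 1 (AT1G76100, PETE1), an electron carrier of the chloroplast that had 3 contigs in the whole table. Of all 63361 parent transcripts with a code, 214 (0.338%) carried codes of 2 or more genes. In the same Trinity gene as another code there was 1 of the 44 Trinity contigs (2.27%), again of PLDδ, beside a contig of AT4G25320, described as an AT-hook DNA-binding protein. Over all Trinity contigs with a code this share was 7.54%.

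Within the wider Trinity components, 9 of the 44 contigs (20.5%) were found together with another gene, against 25.6% over all Trinity contigs with a code. FAD6 lay with AT4G13110, described as a BSD domain protein, in both Trinity assemblies, and with AT1G03350, another BSD domain protein, in the second. ACBP6 lay with AT4G15520, described as a SpoU-type RNA methyltransferase, in both. FAD8 lay with expansin-like B1 (AT4G17030) and PLDδ with AT4G25320 in the first assembly only. Of the 4 pairs with a lipid gene in the first assembly, 2 recurred in the second, while 232 of all 3007 pairs did so (7.72%). Counted from the second assembly, these were 2 of 3 pairs with a lipid gene and 232 of all 1081 pairs (21.5%). Both shares of the lipid genes rest on the same 2 pairs and are imprecise. Genes with like numbers of contigs were not compared for them.

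Of the 33 other Arabidopsis genes listed for the same families, 12 had contigs, with a median of 4 contigs among those found. Of the 25 desaturase genes, the 7 above included, 10 had contigs. Besides those above, FAD4 (AT4G27030), which acts on palmitate of plastid phosphatidylglycerol, had 4 contigs. SLD2 (AT2G46210), a desaturase of sphingolipid long-chain bases, had 6 contigs, and the related sphingolipid desaturase AT4G04930 had 3 contigs, whereas SLD1 (AT3G61580) had 0 contigs. Of the 9 genes of the ADS family, to which FAD5 belongs, the code of FAD5 was the only one found, and ADS1 (AT1G06080) and ADS2 (AT2G31360), the latter known in Arabidopsis for its part in cold acclimation, had 0 contigs. The same held for ADS4 (AT1G06350) and for AT1G06090, AT1G06100, AT1G06120, AT1G06360 and AT3G15870. Contigs described as desaturases numbered 64, of which 35 (54.7%) belonged to the 5 desaturases above with contigs. The 11 among them that were on none of the lists belonged to the carotenoid enzymes ZDS (AT3G04870, 7 contigs) and PDS3 (AT4G14210, 4 contigs). None of the 64 was described as FAD3 or FAD7. As no contig carried the codes of these genes, this adds nothing to their counts by code.

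Of the 12 phospholipase D genes of Arabidopsis, 6 had contigs, 34 in all, and PLDδ and PLDα1 made up 17 of these (50%). PLDζ1 (AT3G16785) had 8 contigs, PLDβ1 (AT2G42010) 6 contigs, PLDζ2 (AT3G05630), which is known from phosphate starvation, 2 contigs and PLDε (AT1G55180) 1 contig. PLDα2 (AT1G52570), PLDα3 (AT5G25370), PLDβ2 (AT4G00240) and the 3 PLDγ genes (AT4G11850, AT4G11830 and AT4G11840) had 0 contigs each. Of the 6 acyl-CoA-binding proteins, 4 had contigs, with 8 for ACBP6, 7 for ACBP4 (AT3G05420), 6 for ACBP3 (AT4G24230) and 4 for ACBP2 (AT4G27780). ACBP1 (AT5G53470) and ACBP5 (AT5G27630) had 0 contigs, while their closest relatives ACBP2 and ACBP4 were both found.

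**Figure D4:**
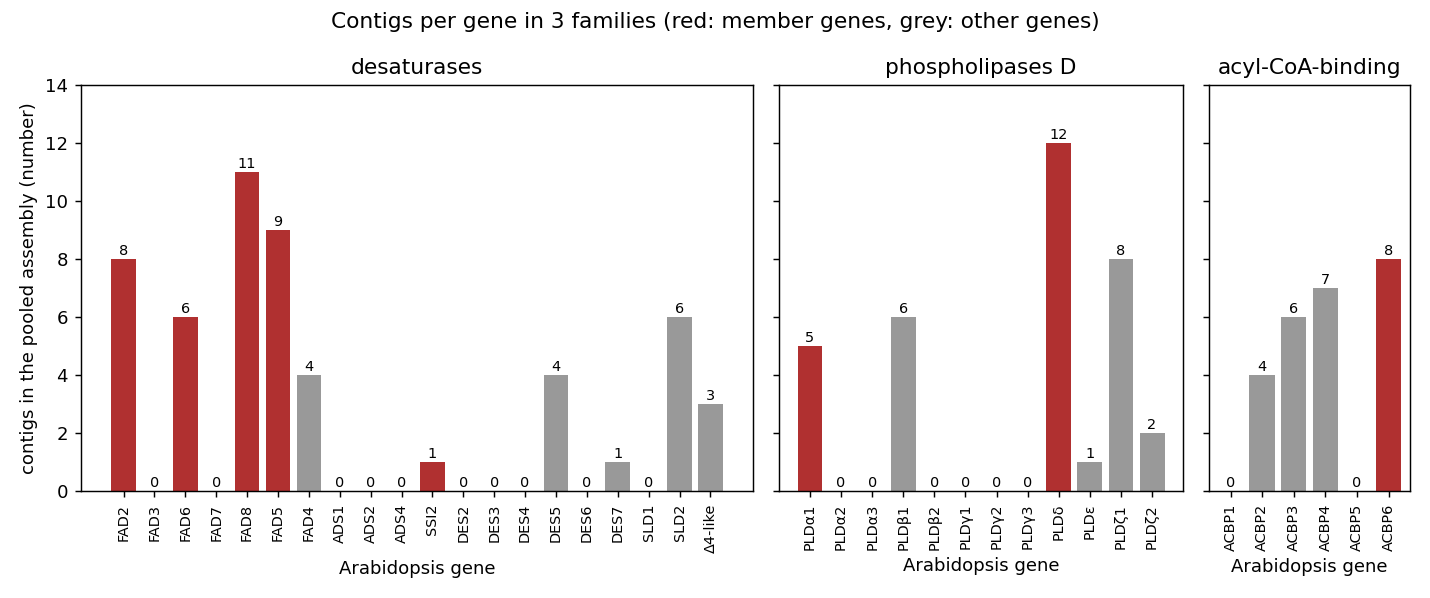
Contigs in the pooled assembly (vertical axis, number) for the Arabidopsis genes (horizontal axis) of 3 families, with the 10 genes described here in red and the others in grey; 5 further ADS genes with 0 contigs are left out of the plot. Some genes at 0 stand beside a close relative with contigs, as FAD7 beside FAD8 with 11 contigs. All 3 PLDγ genes stand at 0. The bars labelled DES6 and DES7 are those of AT5G16240 and AT1G43800, respectively.

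Of 37 genes whose products feed or follow these enzymes, 30 had contigs, with a median of 4 contigs among those found. Of 11 electron donors, 8 had contigs, with a median of 4.5 contigs. Among them was CBR1 (AT5G17770), the reductase that passes electrons to cytochrome b5 and on to FAD2 and FAD3, with 11 contigs, the most in this group, and 4 of 5 cytochrome b5 genes with 24 contigs together. Of 8 genes of acyl supply and editing, 7 had contigs. FATB (AT1G08510), the thioesterase that releases saturated fatty acids from the plastid, had 67 contigs in 45 Trinity genes and ranked 30 among all matched genes. Of 8 galactolipid and sulfolipid genes, 7 had contigs, with 9 each for MGD1 (AT4G31780) and SQD2 (AT5G01220) as the most. Among these 8, SFR2 (AT3G06510), which remodels galactolipids during freezing in Arabidopsis, had 1 contig. Of 10 genes of other phospholipid turnover, 8 had contigs, of which DGK2 (AT5G63770), a diacylglycerol kinase, had the most with 7 contigs.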

How the data were processed

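RNA of fine roots was sequenced in 12 libraries as paired reads after stranded library preparation. The authors trimmed the reads in CLC Genomics Workbench (v. 11.0.1), assembled them with CLC and in Trinity, and used TransDecoder (v. 5.5.0) and cd-hit-est on the merged sequences to predict coding sequences and to collapse similar ones. These were searched by BLAST against *S. purpurea* transcripts (Phytozome v. 12.1). The codes in the table are those of Arabidopsis gene models, and the step from the *S. purpurea* match to these codes, on which every count rests, is not given in the sources used here. The deposited table holds text only, with no count, level, length or match score, so that depth and precision per library are not known from it. Counts per gene also depend on the collapsing. The comparisons of groups, made by the authors with edgeR (v. 3.28.1), were not run.

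Contigs were counted per Arabidopsis code without its suffix, and assembly, Trinity gene, isoform and coding sequence numbers were read from the names. The first and second Trinity assembly were inferred from the prefix of the contig name. Names without a Trinity prefix were assigned to CLC. Named were the 10 genes, all others of their families, the gene with the most contigs of each other list, and all genes that share a Trinity gene with one of the 10. Others (markers, SFR2, the codes in shared transcripts or components, ZDS and PDS3) were picked once their values were known. The 10 genes and the lists were chosen with earlier results of these data known. No test was run, since the counts have no replicates. The counting was tested on simulated data with known counts. The table of *S. viminalis* reference genes used here gives locus tags without gene symbols, 0 of the 10 genes could be matched to it, and no sequences are shown. Python (v. 3.11.15), pandas (v. 2.3.3), NumPy (v. 2.4.6) and matplotlib (v. 3.10.9) were used.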

Additional observations from a re-analysis of the deposited data

How the results depend on the processing

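No paired analysis was possible because the annotation gives nothing per library. The 10 genes had 60 contigs, and 60 when parent transcripts or the first coding sequence of each were counted. The number fell to 29 for Trinity genes in place of contigs, 29 for the first Trinity assembly alone, 16 for CLC and 15 for the second Trinity assembly, all of which count fewer units by construction. The median over the 8 matched genes was 8 contigs. In the same order it was 4, 4, 2 and 3 over the genes with at least 1 unit left. These were 7, 7, 8 and 5 genes, and genes at 0 were left out of each median. Of the 8 matched genes, 5 had contigs from the second Trinity assembly and 8 had CLC contigs. More than 1 contig was found for 7 genes over all assemblies. Within a single assembly this held for 6 genes in the first Trinity assembly, 5 in CLC and 3 in the second Trinity assembly. With coding sequence number 1 only, added once the data were known, 48 contigs of 8 genes were left. FAD3 and FAD7 had 0 contigs under each of these settings, as no contig carries their codes. The share of contigs grouped with another code was 2.27% by Trinity gene, 20.5% by Trinity component and, added later, 18.2% by read cluster (the same DN and c numbers). The counts show which codes were assigned and do not bear on levels.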
